A study of Mus musculus with 2 samples.

Results

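A group of 10 immediate-early and Krüppel-like genes was followed between 2 RNA-seq libraries of mouse macrophages: Egr1, Egr2, Ier2, Ier3, Ier5, Nr4a1, Klf2, Klf4, Klf6 and Myc. They were chosen by symbol, and all 10 were found among the 34745 Ensembl gene identifiers of the deposited table. The cells were primary macrophages grown from C57BL/6 bone marrow, and both groups received an antisense oligonucleotide (ASO) by transfection as well as lipopolysaccharide (LPS), a bacterial product sensed by TLR4. The libraries were AclyE14-ASO, from cells given the oligonucleotide named for Acly, and Control-ASO, from cells given a control oligonucleotide, with 1 library each. Both groups received LPS, so the values compare LPS-treated cells with each other, and no library without LPS was analysed here. The sources used here give neither the LPS dose and time, nor the mice per library, nor the meaning of E14.

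Immediate-early genes are switched on within minutes of a stimulus without new protein synthesis, and most of their mRNAs are short-lived. In macrophages LPS acts on them mainly through the TPL2-ERK cascade, p38 and MSK kinases, and NF-kB. ERK phosphorylates the ternary complex factors that sit beside SRF at CArG boxes, while CREB and ATF1 act at cyclic AMP response elements. The products are mostly transcription factors (EGR, KLF, NR4A and MYC proteins) and, in the IER group, small regulators of survival and transcription. Because the pulse is brief, a level at 1 time point depends on when cells were collected.

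The AclyE14-ASO library held 12751076 gene counts and the Control-ASO library 14215397. Acly, which encodes ATP-citrate lyase, had 7.35 FPKM (768 counts) in the AclyE14-ASO library and 13.3 FPKM (1549 counts) in the Control-ASO library. FPKM is the authors' count scaled to gene length in kilobases and to the library's total count. With 1 library per group there is no replicate check, no test and no p-value, and differences may include variation between cultures. A gene was measured when its mean reached 1 FPKM, which 8658 genes did, and was called higher or lower when FPKM + 1 differed by 1.5-fold. Ratios of counts per library total carry exact 95% intervals, which cover counting error only. They hold no term for variation between cultures, and in the deposited counts PCR copies of 1 molecule cannot be told apart. The median measured gene had a log2 ratio (AclyE14-ASO over Control-ASO, FPKM + 1) of -0.13. In bulk RNA, a different number of cells of a type and a different amount of RNA per cell cannot be told apart.

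Of the 10 genes 9 were measured, and Ier2, Ier3 and Nr4a1 were called higher while 0 were called lower. That is 3 of 9 measured genes, against 7.03% of all measured genes called higher and 8.48% called lower. At a mean of 5 FPKM or more, 6 of the genes were measured, with 2 higher and 0 lower, against 6.29% and 9.6% of all genes at that limit. Nr4a1 entered only through its level in the AclyE14-ASO library, so this share is not a test of the group. The same 3 genes also passed 2-fold, which 3.18% of measured genes did upward and 1.55% downward. The median log2 ratio of the 9 measured genes, which leave out Myc, was 0.25, beside -0.13 for all measured genes. By counting error alone, the interval of the Egr1 count ratio included 1. Those of Ier5 and Klf4 lay wholly below 1 and those of the other genes wholly above 1. Deep counts give narrow intervals, and that of Klf6 left out 1 at a ratio of 1.11. The share of all measured genes with such an interval was not computed, so this is no result about the group. Markers of stromal cells were higher in the same library, with a summed level of 249 FPKM in the AclyE14-ASO library and 65.2 FPKM in the Control-ASO library, and their part in these results was not tested.

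**Figure D1:**
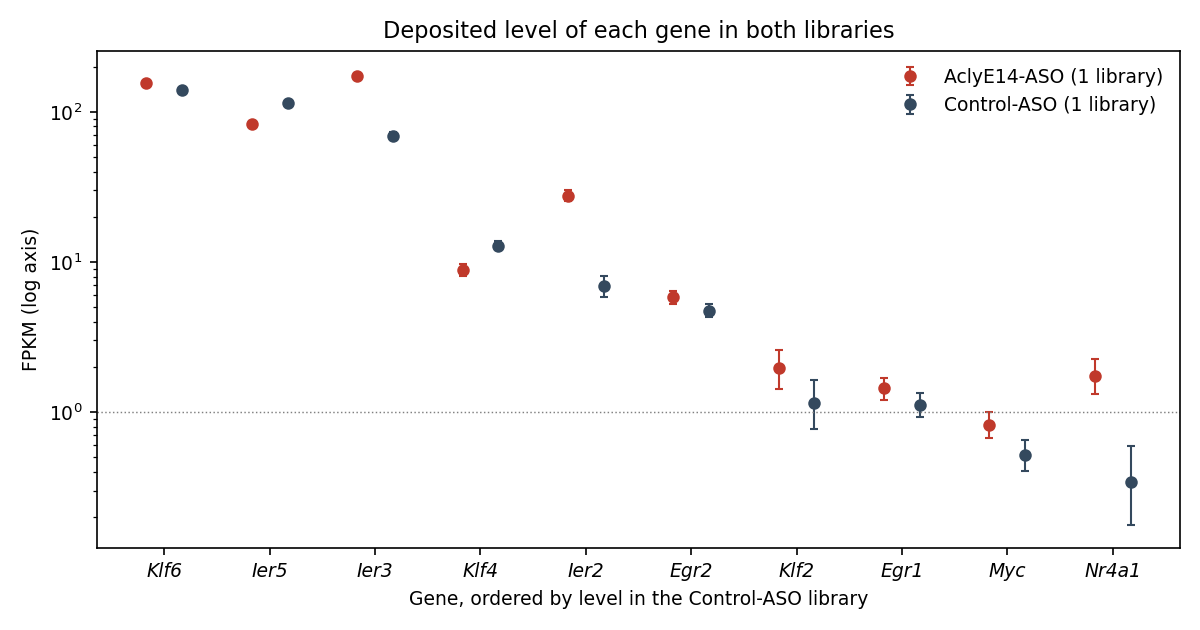
Level of each of the 10 genes in FPKM (log axis) in the AclyE14-ASO library (left point of each pair) and the Control-ASO library (right point), 1 library each. Bars are exact 95% Poisson intervals for counting error and the dotted line marks 1 FPKM. The pairs are widely apart for Ier3 (174 against 69.1 FPKM), Ier2 (27.7 against 6.89 FPKM) and Nr4a1 (1.74 against 0.341 FPKM).

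The IER genes differed in direction. Ier2 (ENSMUSG00000053560, chromosome 8, 84661331 to 84662852, minus strand, GRCm38), which encodes a small nuclear regulator of transcription, had 27.7 FPKM from 537 counts in the AclyE14-ASO library and 6.89 FPKM from 149 counts in the Control-ASO library. Its counting intervals did not overlap, and the count ratio was 4.02 (3.35 to 4.85). Only 0.439% of measured genes had a higher log2 ratio than its 1.86. Ier3 (ENSMUSG00000003541, chromosome 17, 35821684 to 35822923, plus strand), also called IEX-1, an NF-kB-responsive modulator of apoptosis and ERK signalling, had 174 FPKM from 2506 counts in the AclyE14-ASO library and 69.1 FPKM from 1111 counts in the Control-ASO library. The count ratio was 2.51 (2.34 to 2.70) and the log2 ratio 1.32, with 1.59% of measured genes above it.

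Ier5 (ENSMUSG00000056708, chromosome 1, 155096361 to 155099636, minus strand), known for its role in the heat shock factor response, lay on the other side. It had 83.7 FPKM from 3495 counts in the AclyE14-ASO library and 115 FPKM from 5357 counts in the Control-ASO library, a count ratio of 0.727 (0.697 to 0.759). The whole interval lies within 1.5-fold. A ratio of 2 genes within each library is free of the scaling to library totals. Ier3 had 0.717 counts per Ier5 count in the AclyE14-ASO library and 0.207 in the Control-ASO library, a 3.46-fold difference (3.18 to 3.76). Ier2 per Ier5 differed 5.52-fold (4.57 to 6.70), and Ier2 per Ier3 by 1.60-fold (1.31 to 1.95). A relative, Ier5l, had 38 counts in the AclyE14-ASO library and 8 in the Control-ASO library and stayed below the limit of 1 FPKM, at a mean of 0.660 FPKM.

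The promoters of Ier3 and Ier5 are shown because these genes, from 1 named group and both abundant here, differed in direction. The letters are RefSeq promoter sequence (GRCm38.p6), 5′ to 3′ on the gene's strand, and end before the first exon that GENCODE annotates. Capitals mark an NF-kB motif and TATAA in Ier3 (chr17:35821513-35821683, plus strand) and TATAA in Ier5 (chr1:155099637-155099836, minus strand).
Ier3: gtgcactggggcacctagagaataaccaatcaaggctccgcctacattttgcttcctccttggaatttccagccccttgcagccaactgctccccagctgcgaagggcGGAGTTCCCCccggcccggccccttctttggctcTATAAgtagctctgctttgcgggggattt
Ier5: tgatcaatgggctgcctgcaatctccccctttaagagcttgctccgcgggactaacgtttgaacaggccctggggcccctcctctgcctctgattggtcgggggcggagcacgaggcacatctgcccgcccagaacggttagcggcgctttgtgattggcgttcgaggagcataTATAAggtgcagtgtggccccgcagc
Motifs were looked for in the 250 bases before each RefSeq start, on both strands. Promoter sequence was at hand for 7 of the 10 genes and not for Egr1, Ier2 and Myc, so these 3 were not searched for any motif. The NF-kB motif, a match of 10 letters, was found in the Ier3 window and not in the Ier5 window. It was also in 1 of 5 windows of Egr2, which was not called, and 7.25% of all 32851 promoter windows held it. TATAA was found in the windows of both Ier3 and Ier5 and in 22.8% of all windows. A match is a description of letters only.

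Nr4a1 (ENSMUSG00000023034, chromosome 15, 101254269 to 101274795, plus strand) encodes NUR77, an orphan nuclear receptor that restrains inflammatory gene expression in macrophages. It had 1.74 FPKM from 55 counts in the AclyE14-ASO library and 0.341 FPKM from 12 counts in the Control-ASO library. The count ratio of 5.11 was the highest of the 10 genes, but its interval was the widest too, at 2.70 to 10.5. Its log2 ratio of 1.03 on FPKM + 1 was 0.34 with a pseudocount of 5 FPKM, below the call. On the merged exon length described below its mean was 0.735 FPKM, under the limit for a measured gene.

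The other NR4A receptors did not show the same difference. Nr4a3 had 192 counts in the AclyE14-ASO library and 182 in the Control-ASO library, a ratio of 1.18 (0.955 to 1.45), and Nr4a2 had 15 and 17 counts, a ratio of 0.984 (0.457 to 2.09). Counts of Nr4a1 per Nr4a3 count were 0.286 in the AclyE14-ASO library and 0.0659 in the Control-ASO library, a 4.33-fold difference (2.20 to 9.19). Per Nr4a2 count the difference was 5.09-fold (1.85 to 14.7). The interval of each ratio leaves out 1.

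Nr4a1 is shown with CGTCA, the core of the cyclic AMP response element, in capitals, since it had the highest count ratio (chr15:101266646-101266845, plus strand, GRCm38.p6). The letters lie before its RefSeq start and inside an intron of the longer annotated transcript.
Nr4a1: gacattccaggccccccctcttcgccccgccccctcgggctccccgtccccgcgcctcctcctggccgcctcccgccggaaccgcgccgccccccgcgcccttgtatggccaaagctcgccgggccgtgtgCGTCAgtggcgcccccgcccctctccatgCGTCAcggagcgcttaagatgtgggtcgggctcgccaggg
The 250-base window of Nr4a1 held 4 matches to CGTCA, of which the last 200 bases show 2. Among the other genes searched, CGTCA was found in the Klf2 and Klf4 windows and in 3 of 5 Egr2 windows. Of all windows 17.8% held it.

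Egr1 (ENSMUSG00000038418, chromosome 18, 34859823 to 34864984, plus strand) and Egr2 (ENSMUSG00000037868, chromosome 10, 67535475 to 67542188, plus strand) encode zinc finger factors that are classical ERK and SRF targets. Egr1 had 1.44 FPKM from 138 counts in the AclyE14-ASO library and 1.12 FPKM from 120 counts in the Control-ASO library, a ratio of 1.28 (0.997 to 1.65). Egr2 had 5.81 FPKM from 402 counts in the AclyE14-ASO library and 4.75 FPKM from 366 counts in the Control-ASO library, a ratio of 1.22 (1.06 to 1.41). Both stayed within 1.5-fold on FPKM + 1. Egr1 per Egr2 was 0.343 in the AclyE14-ASO library and 0.328 in the Control-ASO library, a 1.05-fold difference whose interval of 0.782 to 1.40 includes 1. Egr3 had 1 and 4 counts and Egr4 had 0 in both.

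The EGR corepressors, NAB1 and NAB2, were measured as well. Nab2, itself induced by EGR factors, had 298 counts in the AclyE14-ASO library and 476 in the Control-ASO library, a ratio of 0.698 (0.602 to 0.808). Nab1 had 473 counts in the AclyE14-ASO library and 564 in the Control-ASO library, a ratio of 0.935 (0.826 to 1.06). Neither passed 1.5-fold, and Nab2 overlaps Stat6 and Nemp1 on the opposite strand.

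Egr2 is the gene among the 7 with RefSeq promoter sequence whose windows held a CArG box, the SRF motif. Of its 5 annotated start windows 4 held one, and 1.47% of all windows did. The 4 are not all separate sites, because the overlapping windows among them share the same box, CCATATATGG. The window among the 4 that lies apart from the others held CCTTTTTTGG. The 30 bases that hold the box and a CGTCA match before one of the RefSeq starts (chr10:67537789-67537818, plus strand, GRCm38.p6) are shown, both in capitals.
Egr2: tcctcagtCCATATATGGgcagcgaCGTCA

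KLF2, KLF4 and KLF6 are zinc finger factors that bind GC-rich and CACCC elements, and macrophage KLF2 and KLF4 are known as restraints on inflammatory activation, while KLF6 is known to favour it. Klf2 (ENSMUSG00000055148, chromosome 8, 72319033 to 72321656, plus strand) had 1.95 FPKM from 46 counts in the AclyE14-ASO library and 1.14 FPKM from 30 counts in the Control-ASO library. The count ratio was 1.71, with an interval of 1.06 to 2.80 that spans the 1.5-fold limit, and the gene was not called on FPKM + 1 (log2 ratio 0.46). Without a pseudocount it passed 1.5-fold, as 9.4% of measured genes did upward.

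Klf4 (ENSMUSG00000003032, chromosome 4, 55527143 to 55532466, minus strand) had 8.87 FPKM from 499 counts in the AclyE14-ASO library and 12.9 FPKM from 806 counts in the Control-ASO library. The count ratio of 0.690 (0.616 to 0.773) spans the lower limit, and the log2 ratio of -0.49 was the lowest of the 10 genes. Of all measured genes 13.1% had a lower one. Klf6 (ENSMUSG00000000078, chromosome 13, 5861482 to 5870394, plus strand) was abundant and nearly level, with 155 FPKM from 8335 counts in the AclyE14-ASO library and 139 FPKM from 8340 counts in the Control-ASO library. Its count ratio was 1.11 (1.08 to 1.15).

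Within the family, Klf2 per Klf4 differed 2.48-fold (1.51 to 4.12) between the libraries, with 0.0922 counts in the AclyE14-ASO library and 0.0372 in the Control-ASO library. Klf6 per Klf4 differed 1.61-fold (1.44 to 1.82), while the interval for Klf2 per Klf6, 0.947 to 2.52, includes 1. The pairs compared here share genes and were chosen with earlier results of these data known, so their intervals are a description and no test. Of the family relatives fixed for comparison (other EGR, IER, NR4A, KLF and MYC genes), 9 of 21 were measured, 0 were called higher and 2 lower, with a median log2 ratio of -0.28. Of all measured genes 7.03% were called higher and 8.48% lower, and with so few relatives their counts describe no trait of them. The 2 lower relatives were Mycl, given with Myc, and Klf8. Klf8 had 3.17 FPKM in the AclyE14-ASO library and 6.62 FPKM in the Control-ASO library, a count ratio of 0.479 (0.421 to 0.544). Klf13, the most abundant relative, had 7.85 FPKM in the AclyE14-ASO library and 9.36 FPKM in the Control-ASO library.

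**Figure D2:**
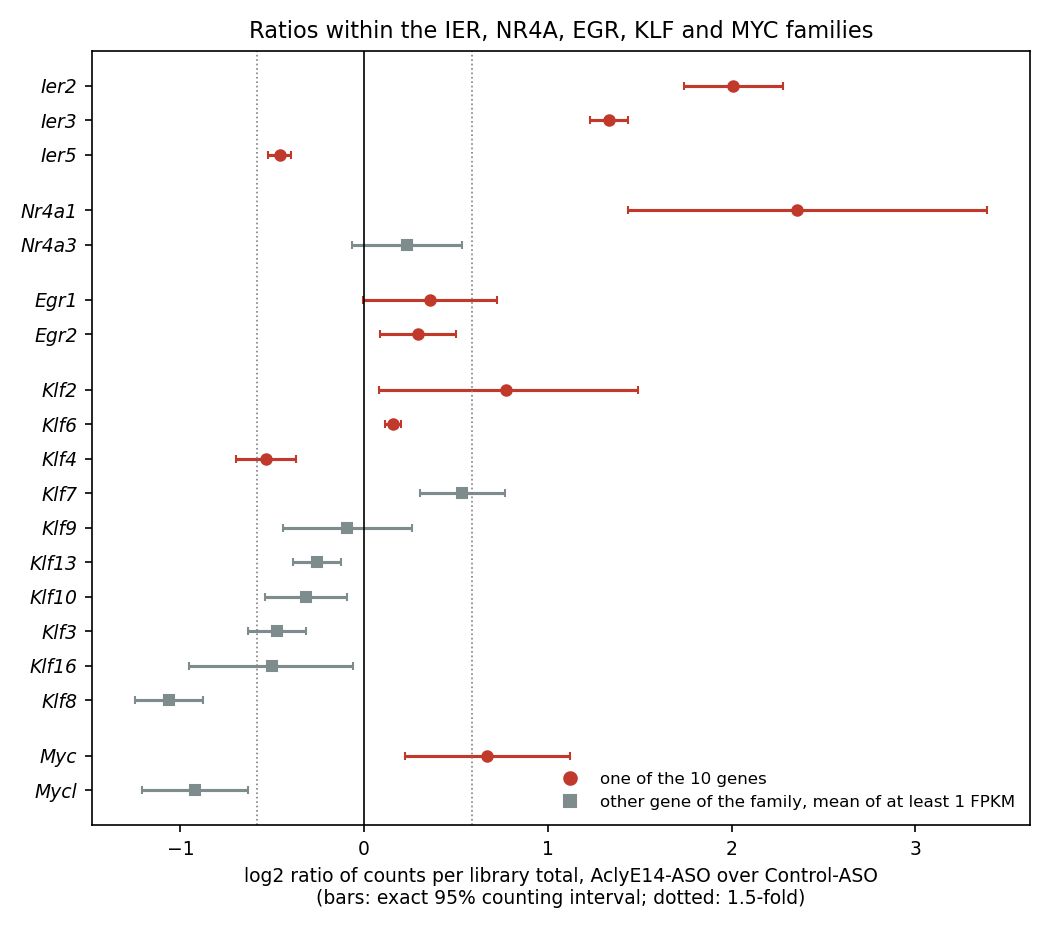
Log2 ratio of counts per library total, AclyE14-ASO over Control-ASO, for the 10 genes (circles) and their measured relatives (squares), grouped by family. Bars are exact 95% counting intervals, and dotted lines mark 1.5-fold. Ier2, Ier3 and Nr4a1 lie wholly right of the upper line, Ier5 and Klf4 lie left of 0, and the intervals of Klf8 and Mycl lie wholly left of the lower line.

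The Klf4 promoter is shown because Klf4 had the lowest log2 ratio of the 10 genes (chr4:55532476-55532675, minus strand, GRCm38.p6). Capitals mark CACGTG, the E-box bound by MYC and MAX and by other factors, and TATAA read on both strands, whose matches overlap.
Klf4: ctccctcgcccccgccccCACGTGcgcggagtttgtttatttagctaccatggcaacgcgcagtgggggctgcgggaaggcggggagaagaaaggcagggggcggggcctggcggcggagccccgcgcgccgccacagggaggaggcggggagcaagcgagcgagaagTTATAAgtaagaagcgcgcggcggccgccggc
CACGTG was also found in the Klf6 window and in 1 of 5 Egr2 windows, and 6.02% of all windows held it. The EGR motif GCGGGGGCG was found in the Nr4a1, Klf2 and Klf4 windows and in 2.57% of all windows. The form GCGTGGGCG was found in 0 windows of the 7 genes and in 0.536% of all windows.

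Myc (ENSMUSG00000022346, chromosome 15, 61985391 to 61990374, plus strand), the growth-promoting factor that pairs with MAX, was the gene left unmeasured on the deposited scale. It had 0.821 FPKM from 104 counts in the AclyE14-ASO library and 0.517 FPKM from 73 counts in the Control-ASO library, with a count ratio of 1.59 (1.17 to 2.17) that spans the 1.5-fold limit. Mycl, a relative, was called lower, with 148 counts in the AclyE14-ASO library and 312 in the Control-ASO library (ratio 0.529, 0.432 to 0.645). Mycn had 3 and 0 counts.

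The genes that compete for or partner with MYC and NUR77, listed with the NAB proteins, gave 1 higher and 1 lower of 11 measured (median -0.16). All measured genes gave 7.03% higher and 8.48% lower. Mxi1, a MAX partner that opposes MYC, had 8.90 FPKM in the AclyE14-ASO library and 3.34 FPKM in the Control-ASO library, a count ratio of 2.66 (2.31 to 3.08). Mxd1, another such partner, had 12.6 FPKM in the AclyE14-ASO library and 19.97 FPKM in the Control-ASO library, a ratio of 0.632 (0.589 to 0.677). Max itself had 130 FPKM in the AclyE14-ASO library and 136 FPKM in the Control-ASO library.

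The list of MYC targets had 18 measured genes, 2 called higher and 3 lower (median -0.32), beside 7.03% and 8.48% of all measured genes. Odc1, the first enzyme of polyamine synthesis, had 279 FPKM in the AclyE14-ASO library and 171 FPKM in the Control-ASO library, a ratio of 1.64 (1.58 to 1.69). The other higher gene, Cdk4, had 925 counts in the AclyE14-ASO library and 561 in the Control-ASO library. It overlaps Tspan31 on the opposite strand, which had 1007 and 1542 counts, and the summed ratio of both genes was 1.02 (0.962 to 1.09), so the value of Cdk4 is uncertain. The nucleolar genes Nop2 (7.04 against 12.0 FPKM, AclyE14-ASO against Control-ASO) and Rrs1 (12.9 against 21.4 FPKM) were lower, as was Rcc1, a nucleotide exchange factor for the GTPase RAN, which was named after its value was seen and shares exon sequence with Snhg3. Ldha, the most abundant, had 266 FPKM in the AclyE14-ASO library and 222 FPKM in the Control-ASO library.

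Comparing levels between genes depends on the gene length behind FPKM. The length was worked back from the deposited counts and FPKM. For 68.1% of 10257 genes with more than 50 counts it equalled, within 1%, the sum of all distinct annotated exons, so that overlapping exons of different transcripts were counted more than once, and for 8.59% it equalled the merged exon length. Of the 10 genes 7 had that sum, while Myc, Nr4a1 and Klf6 matched neither length. Myc was the extreme, with 9933 bases used, 8315 bases of distinct exons and 2717 bases of merged exons in GENCODE M21. Recomputed on merged exons, Myc had 3.00 FPKM in the AclyE14-ASO library and 1.89 FPKM in the Control-ASO library and was measured, at a log2 ratio of 0.47. Ratios of counts do not change with the length.

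On the merged length Egr1 had 2.41 FPKM in the AclyE14-ASO library and 1.88 FPKM in the Control-ASO library, Egr2 had 9.28 and 7.58 FPKM in the same order, and Klf4 12.8 and 18.6 FPKM. Nr4a1 went the other way, to 1.23 and 0.241 FPKM. Again 9 genes were measured there. Ier2 and Ier3 were called higher and 0 lower, against 7.44% of all genes measured on that scale called higher and 8.99% lower.

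**Figure D3:**
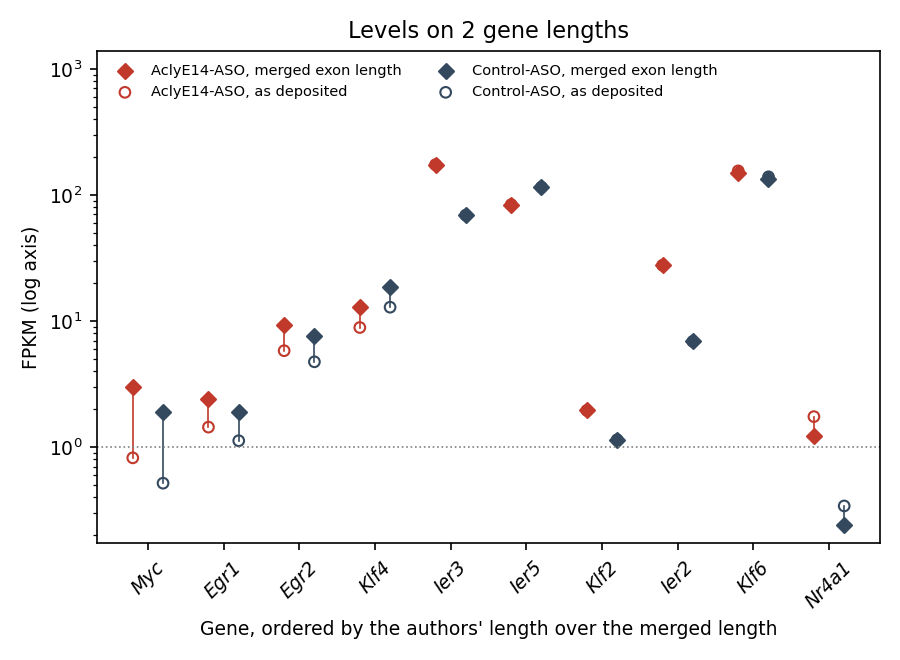
FPKM (log axis) of each of the 10 genes on the authors' gene length (open circles) and on the merged exon length (diamonds), in the AclyE14-ASO library (left of each pair) and the Control-ASO library (right). Genes run from the highest ratio of the authors' length to the merged length, at Myc (9933 against 2717 bases), to the lowest, at Nr4a1, and Ier2, Ier3, Ier5 and Klf2 do not move.

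The order of the deposited levels, in FPKM, was Ier3, Klf6, Ier5, Ier2, Klf4, Egr2, Klf2, Nr4a1, Egr1 and Myc in the AclyE14-ASO library. In the Control-ASO library it was Klf6, Ier5, Ier3, Klf4, Ier2, Egr2, Klf2, Egr1, Myc and Nr4a1. Ier3 was thus the first gene in the AclyE14-ASO library and the third in the Control-ASO library. Neighbours whose counting intervals overlapped were Klf2 and Nr4a1, and Nr4a1 and Egr1, in the AclyE14-ASO library, and Klf2 and Egr1, and Myc and Nr4a1, in the Control-ASO library. On the merged length Myc stood at place 7 in both libraries.

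Most of the 10 genes shared a compact, GC-rich build. In GENCODE M21, 8 of 10 had a merged exon length under the median of measured genes, 4130 bases, with Ier3 at 1131 and Ier2 at 1522 bases. The GC content of the longest transcript was above the measured median of 49.7% in 9 of 10, from Klf2 at 61.6% and Ier2 at 60.9% to Klf6, the exception, at 42.4%. Ier2 and Ier5 have 1 exon, as do 7.71% of measured genes. Taking out the trend of the log2 ratio on length left Ier2, Ier3 and Nr4a1 as the genes called higher, and taking out the trend on GC content added Klf2. The share of all measured genes called was not computed after either step. None of the 10 genes shares exon sequence with another annotated gene.

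Upstream genes were compared as lists. SRF and its partners gave 1 higher and 1 lower of 6 measured, with a median of -0.08, beside 7.03% and 8.48% of all measured genes. Srf, the CArG box factor, had 6.78 FPKM from 354 counts in the AclyE14-ASO library and 16.1 FPKM from 938 counts in the Control-ASO library, a ratio of 0.421 (0.371 to 0.476). Elk3, a ternary complex factor named after its value was seen, was higher at 6.35 FPKM in the AclyE14-ASO library and 2.76 FPKM in the Control-ASO library. It overlaps Cdk17 on the opposite strand, and the summed ratio of both was 1.52 (1.38 to 1.69).

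Kinases and factors between TLR4 and these promoters gave 2 higher and 1 lower of 18 measured, with a median of -0.17. The shares of all measured genes were again 7.03% higher and 8.48% lower. Mapk3, which encodes ERK1, had 53.2 FPKM in the AclyE14-ASO library and 25.2 FPKM in the Control-ASO library, a ratio of 2.11 (1.98 to 2.26). Tnip2, also called ABIN2 and a partner that stabilises TPL2, had 12.3 FPKM in the AclyE14-ASO library and 6.84 FPKM in the Control-ASO library. Atf1, a CREB-related factor, had 6.08 FPKM in the AclyE14-ASO library and 10.2 FPKM in the Control-ASO library, and the abundant p38 effector kinase gene Mapkapk2 had 305 and 404 FPKM in the same order. These are mRNA levels and do not measure kinase activity.

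Other immediate-early genes were spread to both sides. Of 50 measured, 13 were higher and 7 lower, or 26% and 14%, beside 7.03% and 8.48% of all measured genes, and the median was 0.02. At a mean of 5 FPKM or more, 40 were measured, with 9 higher, 7 lower and a median of -0.04. All genes at that limit gave 6.29% higher and 9.6% lower. Id1, called higher, was measured only through its level in the AclyE14-ASO library (4.19 FPKM, against 0.806 FPKM in the Control-ASO library). These shares are therefore not a test of the list. The 3 highest at a mean of 5 FPKM or more were Ccn1, Ccn2 and Id3. Ccn1, a secreted matricellular protein gene, had 29.9 FPKM in the AclyE14-ASO library and 6.62 FPKM in the Control-ASO library, and its relative Ccn2 had 14.8 and 3.68 FPKM in the same order. Id3, an inhibitor of basic helix-loop-helix factors, had 11.7 FPKM in the AclyE14-ASO library and 5.06 FPKM in the Control-ASO library. At the other end were the G protein regulator Rgs2 (4.81 FPKM in the AclyE14-ASO library, 14.5 FPKM in the Control-ASO library), Tnfaip3, which encodes A20 (38.8 and 77.3 FPKM in that order), and the coactivator gene Cited2 (63.2 and 113 FPKM). Nfkbia, the most abundant, had 631 FPKM in the AclyE14-ASO library and 546 FPKM in the Control-ASO library.

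Genes that control the decay of AU-rich mRNAs gave 2 higher and 0 lower of 17 measured, with a median of -0.11. The shares of all measured genes were 7.03% higher and 8.48% lower. Zfp36, which encodes tristetraprolin, a protein that destabilises such mRNAs, had 178 FPKM from 4072 counts in the AclyE14-ASO library and 84.7 FPKM from 2157 counts in the Control-ASO library (ratio 2.10, 1.997 to 2.22). Its relative Zfp36l1, named after its value was seen, had 185 counts in the AclyE14-ASO library and 47 in the Control-ASO library. Zfp36l1 was measured only through its level in the AclyE14-ASO library (2.95 FPKM, against 0.672 FPKM in the Control-ASO library). Zfp36 was counted among the immediate-early genes as well. Over the 7 lists together, 128 of 154 distinct genes were measured, with 20 called higher and 15 lower. Of all measured genes 7.03% were called higher and 8.48% lower. Centring on the median gene gave 25 higher and 6 lower, and rescaling with TMM factors (edgeR's trimmed mean of log ratios) gave 24 and 10. The share of all measured genes called was not computed after centring or TMM, so these counts describe no trait of the lists. Centring adds 0.13 to every log2 ratio and turned the medians of the SRF and the mRNA decay lists to 0.04 and 0.02.

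**Figure D4:**
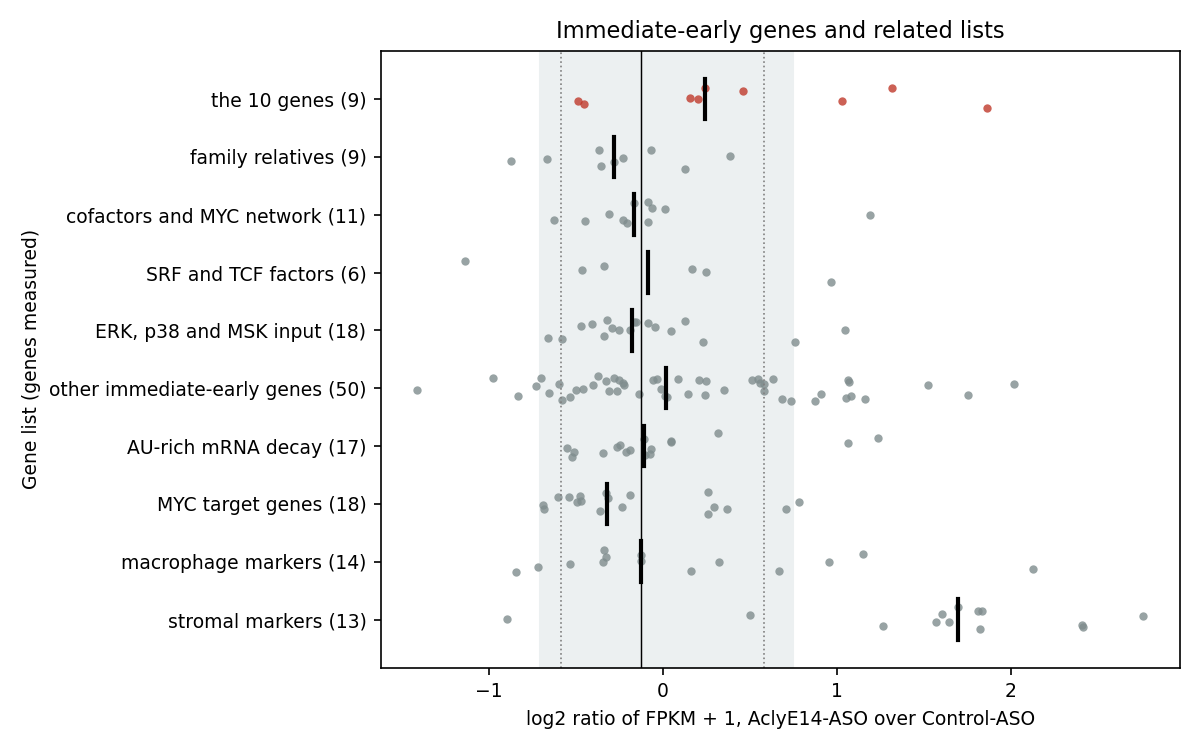
Each measured gene of each list (1 point a gene) by its log2 ratio of FPKM + 1 between the AclyE14-ASO and Control-ASO libraries, with the list median as a black bar. The grey band spans percentiles 5 to 95 of all measured genes (-0.70 to 0.75), the thin line is their median and dotted lines mark 1.5-fold. The 9 measured of the 10 genes lie to both sides, and the stromal markers lie mostly right of the band.

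Markers of the labelled cell type and of others were read beside these results. Macrophage markers gave 14 of 16 measured, with summed levels of 15923 FPKM in the AclyE14-ASO library and 12714 FPKM in the Control-ASO library and a median log2 ratio of -0.13. Lyz2, the macrophage lysozyme, had 12276 FPKM in the AclyE14-ASO library and 9798 FPKM in the Control-ASO library, and Cx3cr1 was at 0 counts in both. Those called higher included Cd14, the LPS co-receptor (count ratio 2.23), the Fc receptor gene Fcgr1 (1.96) and Itgam, and called lower were Cd68 (0.557) and C1qa (0.602). Itgam is uncertain: Gm49368 overlaps it on the same strand, and both genes summed had a ratio of 1.60 (1.53 to 1.68).

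Stromal and endothelial markers gave 13 of 18 measured, of which 11 were higher and 1, Kdr, lower, with a median of 1.70. Of all measured genes 7.03% were called higher and 8.48% lower. In the Control-ASO library 11 of the markers reached 1 FPKM, and in the AclyE14-ASO library 14 did. Some were thus measured only through the AclyE14-ASO library, so the share is not a test of the list. At a mean of 5 FPKM or more, 8 were measured, with 7 higher and 1 lower. The fibroblast genes Aebp1 (12.8 against 1.03 FPKM, AclyE14-ASO against Control-ASO), Tagln (71.9 against 12.6 FPKM) and Col1a1 (20.2 against 2.99 FPKM) had the highest log2 ratios. Tagln overlaps Pcsk7 on the opposite strand, and the summed ratio of both was 2.18 (2.03 to 2.35). Postn, at 5 and 0 counts, was the marker at 0 in the Control-ASO library. Fibroblasts can express immediate-early genes too, but no value here measures fibroblasts alone, and their part in these results was not tested. Of 11 neutrophil markers S100a8, called higher, and Csf3r were measured, with list summed levels of 48.1 FPKM in the AclyE14-ASO library and 24.0 FPKM in the Control-ASO library, and S100a9, Ly6g and Elane were at 0 in both. Of 8 lymphocyte markers 1, Lck, was measured, with list sums of 5.45 FPKM in the AclyE14-ASO library and 3.80 FPKM in the Control-ASO library, and of 6 dendritic cell markers 0 were.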

How the data were processed

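Per the labels' protocols, RNA was extracted on columns; the kits named are a strand-specific total RNA kit and an mRNA capture kit. Per the file headers, the authors' deposited values are raw counts and FPKM per gene in each library. HISAT2, StringTie 1.3.0, edgeR and mm10 are named, with no role, in the submitters' processing notes; the sources used here do not say how counting treated strand or shared reads. The authors' FPKM followed the counts, with a ratio between libraries of 1.11 for FPKM per count, equal to the ratio of count totals.

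Symbols were matched by identifier to GENCODE M21 (GRCm38) for 34267 identifiers. Log2 ratios used a pseudocount of 1 FPKM; intervals were Clopper-Pearson (conditional binomial), Poisson for levels, and exact conditional odds ratios for pairs. Lowess trends used a fraction of 0.3. TMM factors came from edgeR 4.0.16 (R 4.3.3), the rest from Python 3.11.15, SciPy 1.17.1 and statsmodels 0.14.6, tested on simulated counts. Named genes were the 10 genes, relatives past 1.5-fold and, per list, up to 3 called genes at each end with a mean of 5 FPKM or more and the most abundant gene. Genes with a similar pattern were not ranked, because 2 libraries give 1 difference per gene. The genes, lists and pairs were chosen with earlier results of these data known. The motifs and the merged exon length were chosen after the sequences and files were seen.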

Additional observations from a re-analysis of the deposited data

How the results depend on the processing

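No paired analysis was possible because each group had 1 library, and for the same reason no library could be left out. The alternatives were pseudocounts of 0.1 and 5 FPKM, centring, TMM, CPM with TMM factors, trends on length and GC content, a mean limit of 5 FPKM and no limit. Ratios without a pseudocount and FPKM on merged exons were chosen after seeing the data. Summing over overlapping genes was not run as an alternative for the 10 genes, because none of them overlaps another gene. Summed ratios were computed for other listed genes that do, and some are given above. Under every alternative 2 to 4 of the 10 genes were called higher at 1.5-fold and 0 lower, and none of the 10 log2 ratios changed sign. Among the alternatives, the share of all genes called was computed only for the mean limit of 5 FPKM, no pseudocount and merged exons. The counts under the others therefore describe no trait of the group. The lowest and highest log2 ratios over settings were 1.46 and 2.01 for Ier2, 1.27 and 1.45 for Ier3, and 0.34 and 2.35 for Nr4a1, which is limited by its 12 counts in the Control-ASO library. Klf2 ran between 0.18 and 0.77 and was the fourth gene called where 4 were. Myc passed 1.5-fold upward in 2 settings, at 0.67 both in CPM with TMM factors and without a pseudocount. It was not counted there, because its deposited mean of 0.669 FPKM stayed under the limit for a measured gene. For the 7 lists together, a pseudocount of 5 FPKM gave 12 higher and 7 lower, and centring gave 6 lower. No share of all measured genes was computed with either setting. The pseudocount of 5 shrinks low genes by construction.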
